A study of Mus musculus with 12 samples.

Results

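Fatty acid oxidation and ketogenesis were followed in the liver through 33 listed genes, matched by symbol to the rows of the gene table. Of these, 32 had a row of their own, and all 32 were among the 9806 genes tested of 23849 gene symbols in the table. Acads, the short-chain acyl-CoA dehydrogenase gene, stood only on a row shared with Rpl37rt, so its level could not be separated and it was left out of all counts. The 32 genes fell into 19 mitochondrial genes, which are 4 of the carnitine shuttle, 3 acyl-CoA dehydrogenases, 5 of the hydratase to thiolase steps, 4 auxiliary enzymes of unsaturated fatty acids and 3 of electron transfer, and into 7 peroxisomal genes, 2 ketogenic genes and 4 other genes linked to the nuclear receptor PPARα.

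The livers came from 12 male C57BL/6J mice, 8 weeks old according to the series' design text, all of them on a high-fat diet (HFD). For 2 weeks the mice received either vehicle or Libramed, the complex of plant fibers that the study calls Policaptil Gel Retard. The study states that these were the last 2 weeks on HFD, and its methods give 4 weeks of HFD before treatment. The methods also state that the mice were gavaged daily shortly before lights off, with drinking water as the vehicle. Livers were collected at ZT0 (lights on, the end of the active phase) or at ZT12 (lights off, its start), which gave 4 groups of 3 mice: vehicle at ZT0, vehicle at ZT12, Libramed at ZT0 and Libramed at ZT12. No mice on a normal diet were analysed here, so every value below belongs to HFD-fed animals.

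Long-chain fatty acids enter mitochondria as carnitine esters, are shortened by repeated cycles of dehydrogenation, hydration, dehydrogenation and thiolysis, and pass their electrons to the respiratory chain through the electron transfer flavoprotein. Peroxisomes shorten very long and branched chains by a parallel set of enzymes, and liver mitochondria turn part of the resulting acetyl-CoA into ketone bodies. PPARα, which pairs with RXR on a direct repeat of AGGTCA half-sites, is the classical activator of many of these genes in hepatocytes during fasting.

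Levels are FPKM (reads scaled to transcript length and to the mapped total of the library, as deposited), which are per length and can be set side by side between genes. Where values of single mice are listed for a treatment with no time named, the 3 ZT0 mice come before the 3 ZT12 mice. Differences are log2 fold changes on the log2(FPKM + 1) scale with their standard error, tested with limma across all 9806 genes. "Rose" and "fell" mean a limma p under 0.05, the threshold the study used, and p-values adjusted over all genes by Benjamini-Hochberg are given beside them. With 3 mice against 3 the exact permutation test cannot go below p = 0.1, so it adds nothing to a single pairwise comparison. In whole liver, fewer cells of a type and less RNA per cell cannot be told apart.

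Relative depth, read from the values that single reads produce, ran from 0.698 to 1.26. The second Libramed ZT12 replicate was the lowest, and the next lowest, the first vehicle ZT12 replicate, was at 0.949. The 10 most abundant genes took 23.9 to 28.7% of the summed FPKM. In its marker genes the third Libramed ZT12 replicate stood apart, since it held muscle transcripts. Its summed muscle marker level was 32.1 FPKM, against at most 0.0561 FPKM in the other 11 libraries. Results at ZT12 are therefore also given without this library. The second vehicle ZT12 replicate had the highest summed level of 6 adipocyte markers, 52.7 FPKM, of which Cfd made up 42.8 FPKM, while the adipocyte genes Lep and Ucp1 were listed at 0 in all 12 libraries. Of 8 hepatocyte markers, 7 were abundant, and Alb was listed at 0 in all 12 libraries, so hepatocyte identity rested on the other genes, such as Apoa1 and Ttr. The summed level of 4 endothelial markers was lower at ZT12 than at ZT0 without overlap, at 3.38 to 4.30 FPKM after 5.32 to 8.32 FPKM with vehicle and 4.29 to 4.94 FPKM after 5.88 to 7.97 FPKM with Libramed. That of the hepatocyte markers was 30600 to 34000 FPKM with vehicle and 35250 to 43510 FPKM with Libramed at ZT0. At ZT12 it was 29280 to 33580 FPKM with vehicle and 33630 to 40440 FPKM with Libramed. This sum was higher with Libramed without overlap at both times, but most of it was Apoa1, at 20220 to 32460 FPKM. Single hepatocyte markers differed in direction. Apob at ZT12 was lower with Libramed, at 214.1 to 240.9 FPKM against 280.0 to 285.0 FPKM. Tat was lower with Libramed at ZT0, at 372.8 to 441.3 FPKM against 499.5 to 834.1 FPKM, and higher at ZT12. The macrophage marker sum at ZT0 was lower with Libramed without overlap, at 35.75 to 56.58 FPKM against 57.05 to 64.91 FPKM. With Libramed the stellate cell sum was lower at ZT12 without overlap, at 21.78 to 39.65 FPKM after 45.14 to 58.47 FPKM. With vehicle the adipocyte sum was higher at ZT12 without overlap, at 21.24 to 52.67 FPKM after 11.08 to 20.4 FPKM. The part of any of these cell-type markers in the differences below was not tested.

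These genes were among the more abundant of the liver. Their median level was 130.0 FPKM, against 7.79 FPKM for all genes tested, with 19 genes at or above 100 FPKM, 12 between 10 and 100, and 1 under 10. The highest were Acaa2, the mitochondrial 3-ketoacyl-CoA thiolase, at a mean of 1091 FPKM over the 12 mice, then the peroxisomal thiolase Acaa1b at 757 FPKM, and Etfb, a subunit of the electron transfer flavoprotein, at 735 FPKM. Acaa1b and Etfb were close together and their ranges over the 12 mice overlapped, and the range of Acaa1b also overlapped that of Acaa2. The lowest were Hadhb at 17.5 FPKM, Crat at 14.6 FPKM and Pdk4 at 1.45 FPKM, and the ranges of Hadhb and Crat overlapped as well.

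Some levels were uncertain because the transcripts share sequence with other genes. Of the 100-base stretches of each transcript, 65.2% for Etfb and 52.8% for Hadhb also occur in other annotated transcripts, and the values of these genes depend on how such reads were assigned. The share was 30.5% for Acaa1b (shared with Acaa1a and with Dlec1) and 21.6% for Acaa1a (shared with Acaa1b). It was between 2.31 and 8.26% for Acadvl, Eci2, Ucp2, Bdh1 and Crot, and 0 for the other 24 listed genes, Acads included.

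**Figure D1:**
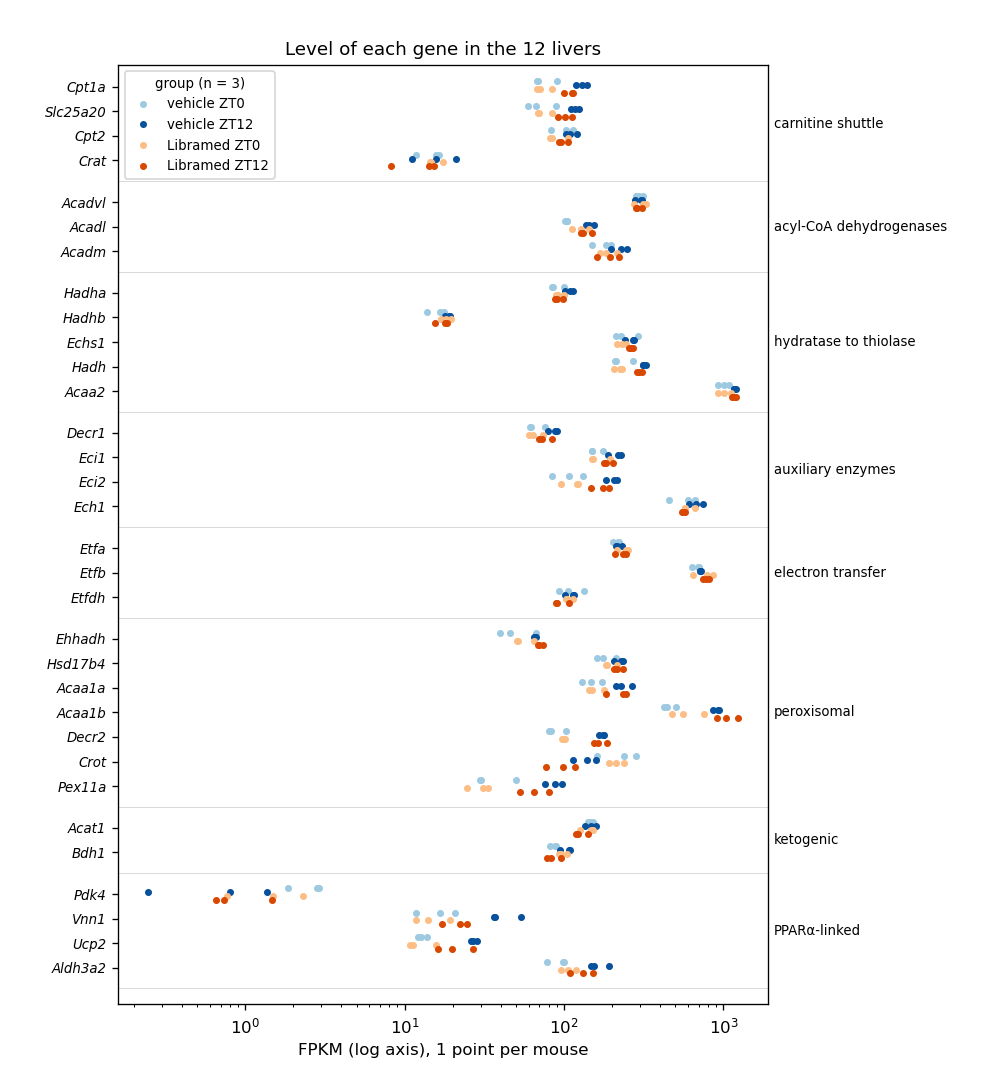
FPKM of the 32 genes (rows, grouped by role) on a log axis, 1 point per mouse, 3 mice in each of 4 groups marked by colour. Acaa2 has the highest mean, with every mouse above 926 FPKM, but the highest single point is Acaa1b at 1234 FPKM with Libramed at ZT12. Pdk4 lies lowest, and ZT12 points sit to the right of ZT0 points for many genes.

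Acaa1a and Acaa1b, which both encode the peroxisomal 3-ketoacyl-CoA thiolase, are shown here because their reads can be separated only where the copies differ. Their coding sequences are 1272 bases each, differ at 44 bases (96.5% identity), and share 1 identical run of 327 bases. The stretch of coding bases 460 to 549 holds 13 of the differences, in capitals:
Acaa1a: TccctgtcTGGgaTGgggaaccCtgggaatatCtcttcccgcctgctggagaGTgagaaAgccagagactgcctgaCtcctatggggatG
Acaa1b: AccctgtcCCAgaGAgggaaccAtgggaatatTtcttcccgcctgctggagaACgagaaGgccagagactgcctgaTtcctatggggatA
These sequences come from the GENCODE vM21 transcripts on GRCm38, on chromosome 9, where the Acaa1b gene spans 119148023 to 119157093 and the Acaa1a gene spans 119339676 to 119350299.

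Promoter windows from RefSeq (build GRCm38.p6, 250 bases before and 50 after the start) were found for 27 of the 33 genes, as 28 windows. The PPARα-type direct repeat, which is AGGTCA, any 1 base, and AGGTCA again, with up to 2 mismatches on either strand, occurred in 3 of the 28 windows (10.7%), against 3.86% of all 32851 windows. The matches are printed because they belong to 1 gene that rose at ZT12 in both treatments, 1 that rose with Libramed and was not called with vehicle, and 1 that was called in no comparison, with the 13 bases of the match in capitals and read on the strand of the gene:
Slc25a20 (chr9:108662134-108662162, + strand): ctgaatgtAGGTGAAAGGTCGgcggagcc
Echs1 (chr7:140116484-140116512, - strand): gcccgctcAGGTCACGGGTCCacccctta
Etfa (chr9:55512300-55512328, - strand): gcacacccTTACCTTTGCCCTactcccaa
In Etfa the repeat lies on the opposite strand. The perfect E-box CACGTG, the palindrome that CLOCK and BMAL1 bind, occurred in 1 of the 28 windows (3.57%), against 7.15% of all windows, in Aldh3a2:
Aldh3a2 (chr11:61267199-61267228, - strand): gggcctcatagtCACGTGcagcagctcagc
A match of letters describes the window only, and no match says only that these letters are not in it.

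The first question was how these genes differed between the start and the end of the active phase in vehicle-treated HFD mice. Under the daily gavage schedule, time since the last gavage also differed between ZT0 and ZT12. It cannot be told apart from time of day here or in the comparisons with Libramed over time. Of the 32 genes, 20 passed p under 0.05 (62.5%, against 27.4% of all genes tested), 18 of them higher at ZT12 (14.4% of all genes) and 2 lower, Crot and Pdk4 (13% of all genes). After adjustment 13 passed (10.4% of all genes did), 12 higher (5.62% of all genes) and 1 lower, Pdk4 (4.78% of all genes). The median log2 fold change was 0.32, against 0.01 over all genes tested. The 3 ZT12 mice lay wholly above the 3 ZT0 mice for 20 genes (17.4% of all genes) and wholly below for 2 (15.8% of all genes).

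The same comparison in Libramed-treated mice gave 13 of 32 genes (40.6%, against 29.2% of all genes tested), 12 higher at ZT12 (15.7% of all genes) and 1 lower, Crot (13.4% of all genes). This split depended on the scaling and on 1 library: it was 10 higher and 7 lower with quantile normalization, and 10 higher and 3 lower without the third ZT12 replicate, the one with muscle transcripts. After adjustment 8 passed (12.4% of all genes did), 7 higher (7.0% of all genes) and Crot lower (5.36% of all genes). The groups did not overlap for 12 genes that were higher (19.0% of all genes) and 1 that was lower (15.8% of all genes). The median log2 fold change was 0.18, against 0.01 over all genes. The genes called in both treatments numbered 11, and 7 of them passed adjustment in both: Cpt1a, Slc25a20, Hadh, Eci2, Acaa1b, Decr2 and Pex11a. Another 9 were called with vehicle and not with Libramed, and 2, Echs1 and Ehhadh, with Libramed and not with vehicle. Such a split does not show a difference between treatments, which is what the interaction tests. Of the 9, 4 had an unadjusted interaction p under 0.05 by limma (6.63% of all genes did), and none passed adjustment. The 9 were picked from the same values, so their share cannot be set against that of all genes. Etfa, Etfb and Etfdh, Cpt2, Crat, Acadvl, Hadhb, Hsd17b4 and Acat1 were called in no comparison.

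The adjusted counts depended on single libraries. For vehicle the 13 genes became 3 without the third ZT0 replicate, 7 without the first ZT12 replicate, 3 without the second and 4 without the third. For Libramed the 8 became 5 and 3 without the second and without the third ZT0 replicate, and 3 without either the second or the third ZT12 replicate, the one with muscle transcripts. At unadjusted p under 0.05 the counts moved less, from 16 to 21 for vehicle and from 11 to 16 for Libramed.

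**Figure D2:**
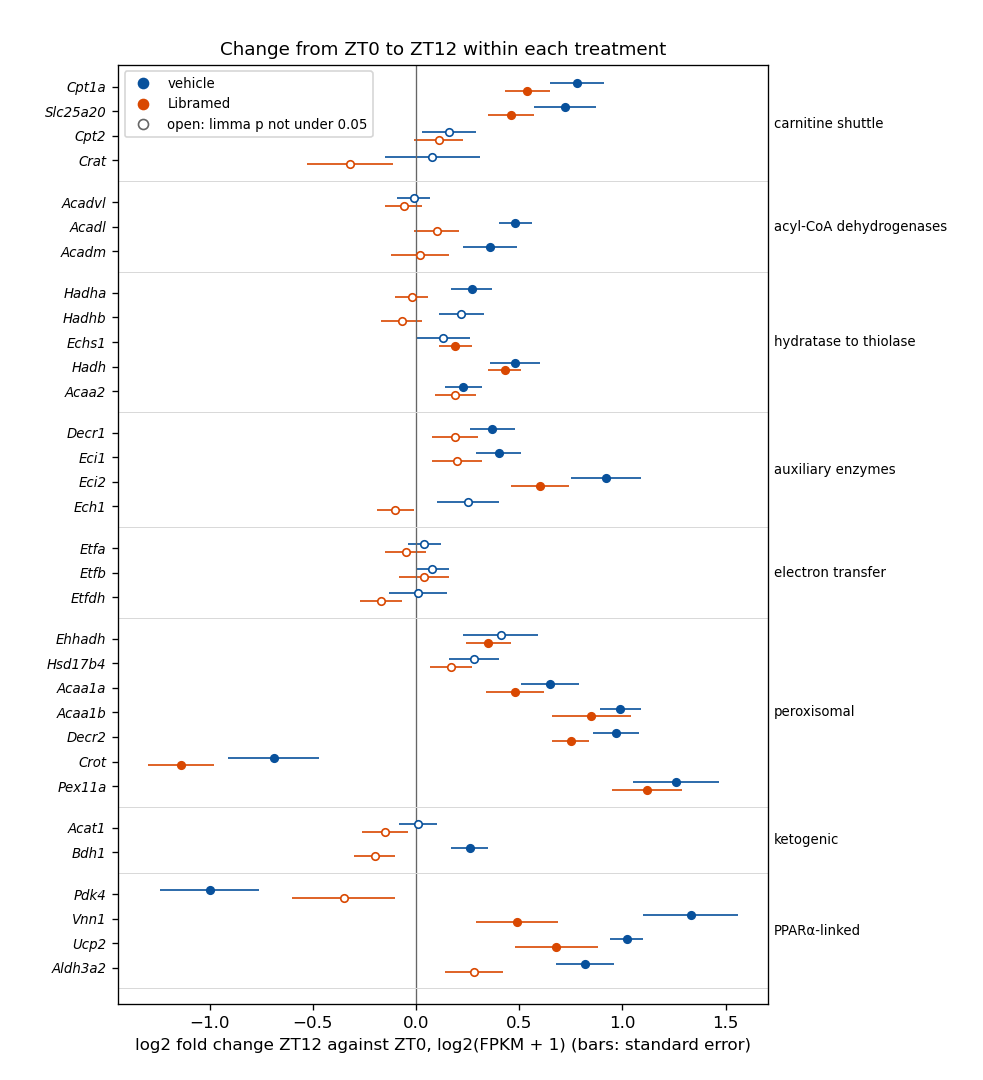
Log2 fold change of ZT12 against ZT0 on the log2(FPKM + 1) scale for the 32 genes, with vehicle (blue) and Libramed (orange), bars giving the standard error and open points a limma p not under 0.05. Most points lie to the right of 0, Crot and Pdk4 lie to the left, and the vehicle point lies farther right than the Libramed point for most genes.

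In the carnitine shuttle, Cpt1a encodes the liver carnitine palmitoyltransferase of the outer mitochondrial membrane, the rate-controlling entry step. The Cpt1a gene lies at chr19:3322334-3385733 (GRCm38, + strand). With vehicle its level was 67.2, 89.8 and 68.6 FPKM in the 3 mice at ZT0 and 119, 129.7 and 139 FPKM at ZT12. With Libramed it was 70.9, 84.2 and 67.6 FPKM at ZT0 and 99.3, 111 and 114 FPKM at ZT12. Every ZT12 mouse exceeded every ZT0 mouse in both treatments, and Cpt1a rose by a log2 fold change of 0.78 ± 0.13 with vehicle (limma adjusted p = 0.0166) and 0.54 ± 0.11 with Libramed (adjusted p = 0.0222). Slc25a20 encodes the carrier that exchanges acylcarnitine for carnitine across the inner membrane. It went from 59.5, 88.7 and 66.3 FPKM to 124, 109.8 and 117 FPKM with vehicle, and from 83.5, 69.1 and 69.0 FPKM to 92.2, 100.8 and 112 FPKM with Libramed. The groups did not overlap in either treatment, with log2 fold changes of 0.72 ± 0.15 (adjusted p = 0.0316) and 0.46 ± 0.11 (adjusted p = 0.0423). Cpt2, which re-forms acyl-CoA inside the mitochondrion, lay between 81.7 and 120.3 FPKM in the 12 mice and was not called. Crat, carnitine acetyltransferase, was at 16.5, 15.8 and 11.8 FPKM and 11.1, 15.6 and 20.9 FPKM with vehicle, and at 14.4, 17.3 and 14.7 FPKM and 15.3, 14.1 and 8.17 FPKM with Libramed. Its highest and its lowest mouse were both at ZT12, and it was not called either.

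Of the acyl-CoA dehydrogenases, which take the first oxidation step and differ in the chain length they prefer, Acadl (long-chain) was nearly the same in the 3 vehicle mice at ZT0. With vehicle it was 105, 104 and 102 FPKM at ZT0 and 144, 137 and 154 FPKM at ZT12, and with Libramed 128, 112 and 143 FPKM and 132, 128 and 149 FPKM. It rose with vehicle by 0.48 ± 0.08 (log2, adjusted p = 0.0149), whereas with Libramed the ZT0 and ZT12 mice overlapped, at 0.10 ± 0.11 (adjusted p = 0.613). Acadm (medium-chain) was at 182, 196 and 149 FPKM at ZT0 and 228, 198 and 249.6 FPKM at ZT12 under vehicle, a rise of 0.36 ± 0.13 (adjusted p = 0.142). This rise did not pass adjustment, and its unadjusted p exceeded 0.05 without the third ZT0, the first ZT12 or the third ZT12 replicate. With Libramed Acadm ranged from 215, 167 and 183 FPKM to 161, 194 and 222 FPKM, overlapping between the times. Acadvl (very-long-chain) stayed within 274.7 to 325 FPKM over all 12 mice and was not called. The row shared by Acads and Rpl37rt lay between 508.5 and 690.1 FPKM, with no call over time (adjusted p = 0.502 with vehicle).

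Hadha and Hadhb encode the 2 subunits of the mitochondrial trifunctional protein, which carries out the last 3 steps for long chains, and the genes lie head to head on chromosome 5, with RefSeq starts 273 bases apart (30154980 on the minus strand and 30155253 on the plus strand). The 85 bases between the annotated gene bodies (GRCm38.p6, chr5:30155163-30155247, plus strand) are shown because both genes are transcribed away from them:
Hadha-Hadhb: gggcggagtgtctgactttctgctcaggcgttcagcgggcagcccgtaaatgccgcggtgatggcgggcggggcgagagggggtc
With vehicle Hadha was at 84.7, 100.4 and 83.7 FPKM at ZT0 and 108, 102 and 114 FPKM at ZT12, a rise of 0.27 ± 0.10 (adjusted p = 0.136), and the unadjusted p exceeded 0.05 without the first or the third replicate of either group. With Libramed Hadha was at 100.4, 91.3 and 89.4 FPKM and 88.3, 90.8 and 98.2 FPKM, and the times overlapped. Hadhb, about which shared sequence leaves doubt, was at 16.7, 17.7 and 13.7 FPKM and 19.2, 17.9 and 19.0 FPKM with vehicle, at 0.22 ± 0.11 (adjusted p = 0.243), and at 19.5, 16.8 and 18.0 FPKM and 17.9, 15.6 and 18.3 FPKM with Libramed. The Hadhb mice did not overlap between times with vehicle and did with Libramed, as for Hadha.

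Among the enzymes for shorter chains, Hadh, the 3-hydroxyacyl-CoA dehydrogenase, rose in both treatments. It went from 269.7, 212 and 209.5 FPKM to 315, 314 and 328 FPKM under vehicle and from 231, 223 and 206 FPKM to 286, 309 and 296 FPKM with Libramed. The times did not overlap, with rises of 0.48 ± 0.12 (adjusted p = 0.0467) and 0.43 ± 0.08 (adjusted p = 0.0188). Acaa2 was at 1076, 1007 and 927 FPKM and 1164, 1164 and 1201 FPKM with vehicle, and at 1116, 931 and 1014 FPKM and 1158, 1132 and 1202 FPKM with Libramed. ZT12 mice were above ZT0 mice in both treatments, but Acaa2 was called with vehicle only, at 0.23 ± 0.09 (adjusted p = 0.162) against 0.19 ± 0.10 with Libramed (adjusted p = 0.235), and the call was lost when any one library other than the first ZT0 replicate was left out. Echs1, the short-chain enoyl-CoA hydratase, was at 289.7, 210.5 and 226 FPKM and 242, 276 and 269 FPKM with vehicle, where the times overlapped (0.13 ± 0.13, adjusted p = 0.591). With Libramed it was at 230.4, 216 and 244 FPKM and 256, 262 and 269 FPKM, a rise of 0.19 ± 0.08 (adjusted p = 0.17), whose unadjusted p remained under 0.05 in 1 of the 6 fits that left out a library.

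The auxiliary enzymes reduce or move double bonds so that unsaturated chains can enter the cycle. Eci2, an enoyl-CoA isomerase found in both mitochondria and peroxisomes, was at 107, 132 and 83.8 FPKM and 205, 183 and 215 FPKM under vehicle and at 121, 95.3 and 122 FPKM and 148, 174 and 191 FPKM with Libramed. It had the largest rise of the 19 mitochondrial genes in both treatments, 0.92 ± 0.17 (adjusted p = 0.021) and 0.60 ± 0.14 (adjusted p = 0.0334), with no overlap. Its mitochondrial relative Eci1 went from 151, 176 and 150.1 FPKM to 226, 188 and 217 FPKM with vehicle, a rise of 0.40 ± 0.11 (adjusted p = 0.0648). With Libramed Eci1 was at 193, 152 and 149 FPKM and 184, 179 and 203 FPKM, overlapping, at 0.20 ± 0.12 (adjusted p = 0.314). Decr1, the mitochondrial 2,4-dienoyl-CoA reductase, was at 62.3, 75.6 and 61.2 FPKM and 89.6, 79.6 and 87.8 FPKM with vehicle, and at 73.4, 59.9 and 64.0 FPKM and 69.5, 72.4 and 84.4 FPKM with Libramed. Its times were separate with vehicle (0.37 ± 0.11, adjusted p = 0.0775) and overlapped with Libramed (0.19 ± 0.11, adjusted p = 0.299). Ech1, a dienoyl-CoA isomerase, was not called over time, at 0.25 ± 0.15 with vehicle (adjusted p = 0.353) and -0.10 ± 0.09 with Libramed (adjusted p = 0.517).

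None of the 3 genes of electron transfer was called in any of the 6 comparisons. Etfa and Etfb, the subunits of the electron transfer flavoprotein, and Etfdh, which passes the electrons to ubiquinone, had a median log2 fold change over time of 0.04 with vehicle and -0.05 with Libramed. Etfa lay between 203.8 and 252.6 FPKM, Etfb between 638 and 857 FPKM and Etfdh between 88.8 and 133 FPKM in the 12 mice. Etfb was at 638, 697 and 704 FPKM and 719.7, 713 and 715 FPKM with vehicle with the times separate but the difference not called (adjusted p = 0.609), and at 857, 639.9 and 792 FPKM and 817, 749 and 774 FPKM with Libramed.

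The 7 peroxisomal genes had larger changes than the 19 mitochondrial genes, with a median log2 fold change of 0.65 against 0.25 with vehicle and 0.48 against 0.10 with Libramed. Of the 7, 5 were called with vehicle (71.4%, 4 higher and Crot lower) and 6 with Libramed (85.7%, 5 higher and Crot lower). Of the 19, 10 (52.6%) and 5 (26.3%) were called, all higher, against 27.4% and 29.2% of all genes in either direction. The summed level of the 7 was 1193 ± 179 FPKM (SD, n = 3) at ZT0 and 1831 ± 72.0 FPKM at ZT12 under vehicle, and 1345 ± 215 FPKM and 1903 ± 69.4 FPKM with Libramed. The medians are a description, since the genes were grouped by known location and no test compared the groups of genes. Eci2 and Ech1, which are also found in peroxisomes, were counted as mitochondrial.

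Pex11a, a membrane protein that promotes peroxisome division, rose most among them. The Pex11a gene lies at chr7:79735957-79743131 (GRCm38, - strand). It was at 29.9, 49.6 and 30.0 FPKM and 88.1, 75.8 and 97.0 FPKM with vehicle, and at 33.4, 30.8 and 24.5 FPKM and 52.6, 64.5 and 80.1 FPKM with Libramed. No ZT12 mouse was as low as any ZT0 mouse of its treatment, and the rise was 1.26 ± 0.21 with vehicle (a 2.40-fold rise on this scale, adjusted p = 0.0153) and 1.12 ± 0.17 with Libramed (adjusted p = 0.0101). Acaa1b was at 423, 507 and 444 FPKM and 865, 926 and 941 FPKM with vehicle, and at 756, 558 and 476 FPKM and 1234, 1040 and 915 FPKM with Libramed. It rose by 0.99 ± 0.10 (adjusted p = 0.00452) and 0.85 ± 0.19 (adjusted p = 0.0306), and the Libramed mice spread more widely at both times. Acaa1a, at a lower level, was at 147, 174 and 129.8 FPKM and 213, 227 and 265 FPKM with vehicle, and at 178, 149 and 144 FPKM and 183, 236 and 244 FPKM with Libramed. Its rises were 0.65 ± 0.14 (adjusted p = 0.0317) and 0.48 ± 0.14 (adjusted p = 0.0638), with no overlap of times. Given the shared run in the sequences above, how far the 2 thiolase genes move apart from each other is uncertain.

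Decr2, the peroxisomal counterpart of Decr1, had the smallest adjusted p of the 32 genes with Libramed. The Decr2 gene lies at chr17:26081208-26090337 (GRCm38, - strand). It was at 80.7, 102 and 82.4 FPKM and 175, 166 and 177 FPKM with vehicle, and at 100.7, 96.9 and 97.8 FPKM and 153, 163 and 186 FPKM with Libramed. The times were far apart in both treatments, with rises of 0.97 ± 0.11 (adjusted p = 0.00586) and 0.75 ± 0.09 (adjusted p = 0.0044). Ehhadh, the bifunctional hydratase and dehydrogenase of straight-chain peroxisomal oxidation, was at 45.7, 66.3 and 39.5 FPKM and 66.8, 65.3 and 65.0 FPKM with vehicle, where the second ZT0 mouse was as high as the ZT12 mice (0.41 ± 0.18, adjusted p = 0.199). With Libramed it was at 65.1, 50.8 and 51.0 FPKM and 74.03, 70.0 and 68.8 FPKM, did not overlap and rose by 0.35 ± 0.11 (adjusted p = 0.0841), a call lost without the third ZT0 replicate. Hsd17b4, the other bifunctional enzyme, lay between 161 and 235 FPKM and was not called, at 0.28 ± 0.12 with vehicle (adjusted p = 0.192) and 0.17 ± 0.10 with Libramed (adjusted p = 0.289).

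Crot was the only one of the 7 with lower mean values at ZT12. The Crot gene lies at chr5:8966033-8997324 (GRCm38, - strand). It encodes carnitine octanoyltransferase, which prepares shortened chains for export from the peroxisome. With vehicle Crot was at 159.9, 282 and 237 FPKM at ZT0 and 158, 114 and 138 FPKM at ZT12, and with Libramed at 238, 213 and 191 FPKM and 76.5, 98.9 and 118 FPKM. With vehicle the lowest ZT0 mouse lay just above the highest ZT12 mouse, and with Libramed the times were far apart. Crot fell by 1.14 ± 0.16 on the log2 scale with Libramed (adjusted p = 0.00802), and its log2 fold change with vehicle was -0.69 ± 0.22 (adjusted p = 0.098). The call with vehicle was lost without the third ZT0 or the second ZT12 replicate. The difference between the treatments was not called (interaction -0.45 ± 0.30, adjusted p = 0.834).

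The 2 ketogenic genes had a median log2 fold change over time of 0.13 with vehicle and -0.17 with Libramed. The Bdh1 gene lies at chr16:31422280-31458901 (GRCm38, + strand). Bdh1, which interconverts acetoacetate and 3-hydroxybutyrate, was at 88.7, 82.1 and 88.1 FPKM at ZT0 and 108, 94.9 and 109 FPKM at ZT12 under vehicle, a rise of 0.26 ± 0.09 (adjusted p = 0.108) without overlap, lost without the second ZT0, the first ZT12 or the third ZT12 replicate. With Libramed it was at 104, 96.2 and 93.2 FPKM and 82.4, 78.0 and 95.8 FPKM, and the difference was negative, -0.20 ± 0.10 (adjusted p = 0.246), with 1 mouse of the later time inside the range of the earlier. Acat1, the mitochondrial acetoacetyl-CoA thiolase, lay between 118 and 159 FPKM in the 12 mice and was not called. The summed level of the pair was 252 ± 18.5 FPKM (SD, n = 3) at ZT12 with vehicle and 213 ± 21.1 FPKM with Libramed.

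The other PPARα-linked genes included the largest rise of all 32 with vehicle, that of Vnn1. The Vnn1 gene lies at chr10:23894688-23905343 (GRCm38, + strand). Vnn1, a pantetheinase of the liver, was at 16.7, 20.6 and 11.8 FPKM and 36.9, 36.3 and 53.6 FPKM with vehicle, and at 13.9, 19.3 and 11.8 FPKM and 17.0, 24.7 and 22.1 FPKM with Libramed. It rose by 1.33 ± 0.23 with vehicle (a 2.51-fold rise, adjusted p = 0.0173) and by 0.49 ± 0.20 with Libramed (adjusted p = 0.154), where the times overlapped and the call held in 2 of the 6 fits that left out a library. Ucp2, a mitochondrial inner membrane carrier, was at 13.8, 12.2 and 12.6 FPKM and 26.0, 26.7 and 28.4 FPKM with vehicle, and at 10.8, 15.7 and 11.2 FPKM and 19.7, 26.8 and 16.2 FPKM with Libramed. The times did not overlap and Ucp2 rose by 1.02 ± 0.08 (adjusted p = 0.00275) and 0.68 ± 0.20 (adjusted p = 0.073). Aldh3a2, the fatty aldehyde dehydrogenase whose E-box is printed above, was at 98.9, 100.3 and 78.5 FPKM and 147, 154 and 191 FPKM with vehicle, and at 118, 106 and 95.8 FPKM and 108, 132 and 151 FPKM with Libramed. It rose with vehicle by 0.82 ± 0.14 (adjusted p = 0.0181), and the times overlapped with Libramed (0.28 ± 0.14, adjusted p = 0.238).

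Pdk4, the kinase that shuts off pyruvate dehydrogenase when fat is burnt, was near the lower limit of the values tested. With vehicle it was at 2.90, 1.85 and 2.80 FPKM at ZT0 and 0.243, 0.804 and 1.36 FPKM at ZT12, and with Libramed at 0.764, 2.31 and 1.49 FPKM and 1.48, 0.730 and 0.654 FPKM. It fell with vehicle, to 0.50 times its ZT0 level on this scale (adjusted p = 0.0472), with every ZT12 mouse below every ZT0 mouse, and the Libramed times overlapped (-0.35 ± 0.25, adjusted p = 0.417). At this level the added 1 FPKM understates its fold change.

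**Figure D3:**
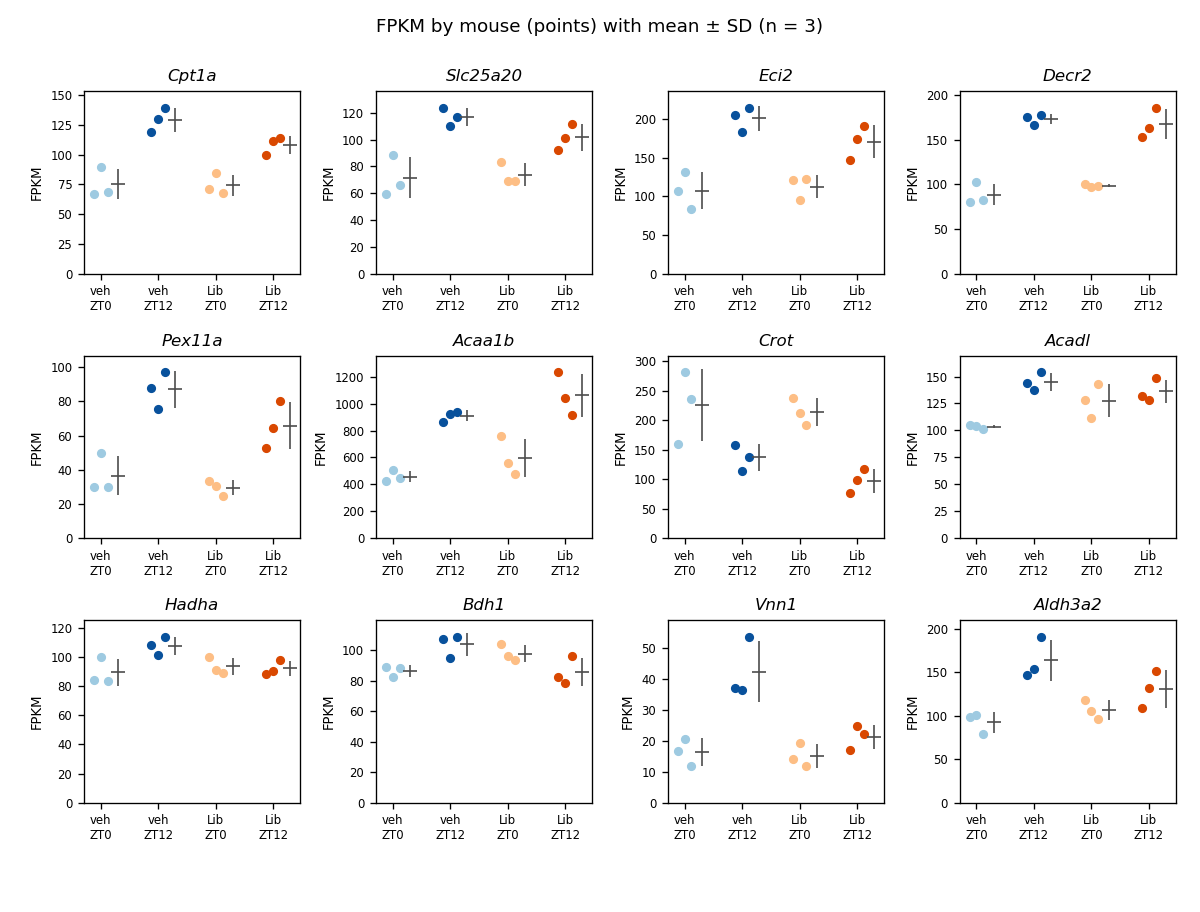
FPKM of 12 genes in each mouse (points) on linear axes from 0, with the group mean and SD (n = 3) beside them, veh standing for vehicle and Lib for Libramed. Cpt1a, Slc25a20, Eci2, Decr2, Pex11a and Acaa1b are higher at ZT12 in both treatments, Crot is lower, and for Acadl, Hadha, Bdh1, Vnn1 and Aldh3a2 the step from ZT0 to ZT12 is larger with vehicle.

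The second question was whether Libramed changed these genes at a given time. The vehicle groups used here are the same mice as in the comparisons over time, so the results below are not independent of those above. At ZT0, 1 of the 32 genes was called (3.12%, against 9.23% of all genes tested, 3.42% higher and 5.81% lower). Acadl was higher with Libramed by 0.29 ± 0.11 (128 ± 15.5 against 104 ± 1.61 FPKM, SD, n = 3 each, adjusted p = 0.523), with all 3 Libramed mice above all 3 vehicle mice. The median log2 fold change at ZT0 was 0.06, against -0.02 for all genes tested, and it was -0.02 without the third vehicle replicate. Leaving out 1 library gave 0 to 3 called genes: 0 without the first or the third vehicle replicate or the first Libramed replicate, and 3 without the second replicate of either group. The Acadl call itself held only without the second Libramed replicate, and it was lost with Cyber-T, which called 1 other gene of the 32 instead, Pdk4, lower with Libramed. Bdh1 was the other gene of the 32 without overlap at ZT0 (5.19% of all genes were wholly higher and 9.94% wholly lower), higher in every Libramed mouse by 0.18 ± 0.09, with adjusted p = 0.617. No gene of the 9806 passed adjustment by limma at ZT0, while 905 had an unadjusted p under 0.05, and a Cyber-T version of the test passed 0 of the 32.

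At ZT12, 7 of the 32 genes were called, all lower with Libramed (21.9%, against 6.74% of all genes in either direction, 3.67% lower and 3.07% higher). The median log2 fold change was -0.18, against -0.01 for all genes tested, and 27 of the 32 genes were below 0, against 54.4% of all genes tested. The 7 were spread over the classes: Cpt1a, Hadha, Ech1, Crot, Pex11a, Bdh1 and Vnn1. The 3 Libramed mice lay wholly below the vehicle mice for 5 genes (7.26% of all genes) and wholly above for 2, Etfb and Ehhadh (5.88% of all genes). No gene of the 9806 passed adjustment by limma, while 661 had an unadjusted p under 0.05, and the Cyber-T version of the test passed 1 of the 32, Vnn1.

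The count at ZT12 turned on single mice. It was 16 without the third Libramed replicate, the one with muscle transcripts, 9 without the second vehicle replicate, 4 without the first vehicle replicate, 3 without the second Libramed replicate, and 1 without either the third vehicle or the first Libramed replicate. Vnn1 kept its call in all 6 of these fits, and the other 6 genes kept theirs in 2 or 3. The part of muscle or fat transcripts in these differences was not tested beyond leaving those libraries out.

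Vnn1 had the largest difference at ZT12. The values given above, 36.9, 36.3 and 53.6 FPKM under vehicle and 17.0, 24.7 and 22.1 FPKM with Libramed, did not overlap, and Vnn1 fell with Libramed by 0.95 ± 0.19 on the log2 scale (limma p = 0.00151, adjusted p = 0.7, exact permutation p = 0.1, the smallest it can give), with log2 fold changes of -1.06 to -0.77 over the fits without 1 library. In the carnitine shuttle Cpt1a was 129 ± 10.2 FPKM under vehicle and 108 ± 7.70 FPKM with Libramed (SD, n = 3), a difference of -0.26 ± 0.09 (adjusted p = 0.729) without overlap. Slc25a20 beside it was at -0.20 ± 0.09 and did not pass (adjusted p = 0.729).

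In the cycle itself Hadha was 108 ± 6.24 FPKM under vehicle and 92.4 ± 5.11 FPKM with Libramed, a difference of -0.22 ± 0.08 (adjusted p = 0.729), again without overlap. Ech1 was at 674, 612 and 739 FPKM under vehicle and 547, 560.2 and 578 FPKM with Libramed at ZT12, after 663, 599 and 458 FPKM and 662, 575 and 572 FPKM at ZT0. All 3 Libramed mice were below the vehicle mice at ZT12 (-0.26 ± 0.09, adjusted p = 0.729), and the ZT0 groups overlapped. Hadh was lower in every Libramed mouse too, but by 0.10 on the log2 scale with adjusted p = 0.759.

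Among the peroxisomal genes Crot was 137 ± 22.1 FPKM under vehicle and 97.6 ± 20.6 FPKM with Libramed at ZT12 (-0.49 ± 0.18, adjusted p = 0.729), and Pex11a was 87.0 ± 10.7 and 65.7 ± 13.8 FPKM (-0.41 ± 0.16, adjusted p = 0.729). In both genes 1 Libramed mouse lay inside the vehicle range. Acaa1b went the other way without being called, at 0.36 ± 0.18 at ZT0 (adjusted p = 0.617) and 0.21 ± 0.12 at ZT12 (adjusted p = 0.744). Of the ketogenic genes Bdh1 was 104 ± 7.66 FPKM under vehicle and 85.4 ± 9.25 FPKM with Libramed (-0.28 ± 0.10, adjusted p = 0.729), with 1 Libramed mouse inside the vehicle range.

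**Figure D4:**
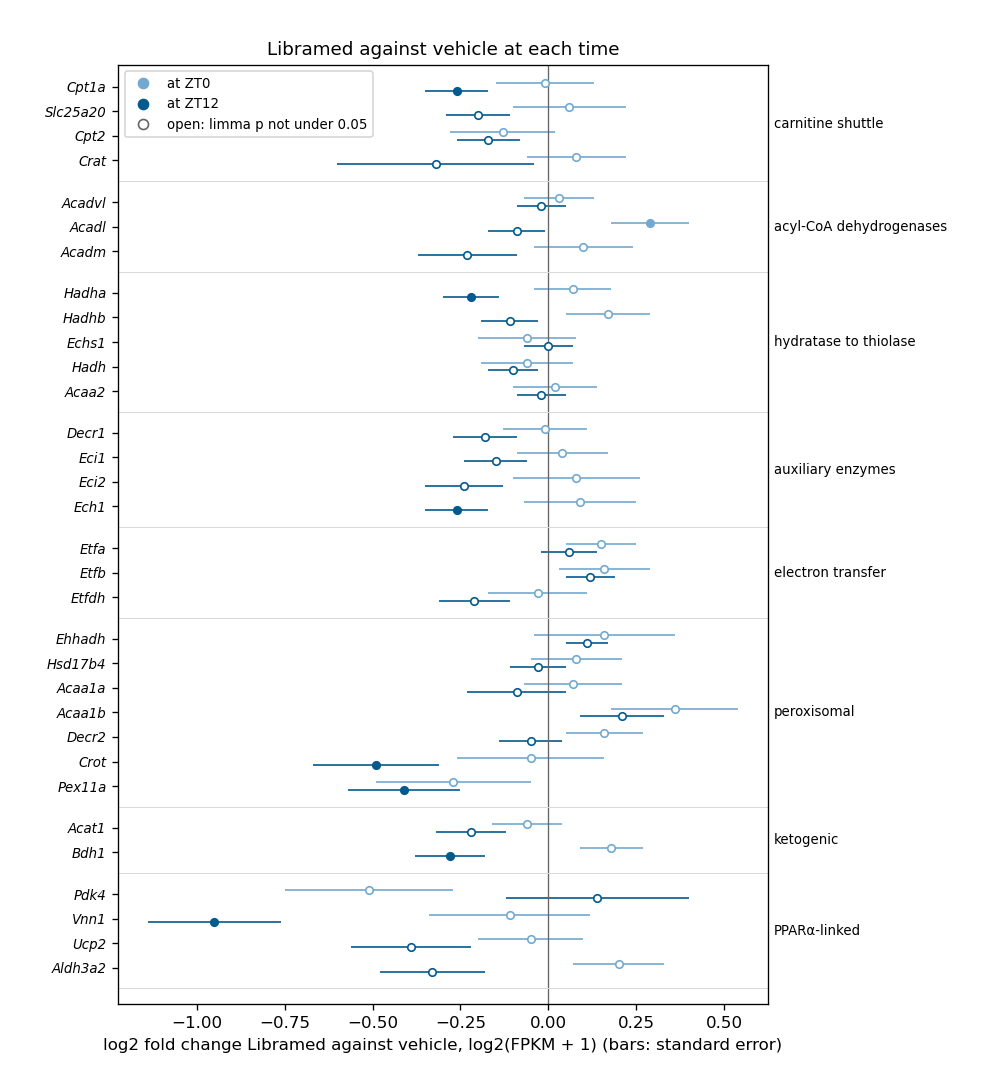
Log2 fold change of Libramed against vehicle on the log2(FPKM + 1) scale for the 32 genes at ZT0 (light) and ZT12 (dark), bars giving the standard error and open points a limma p not under 0.05. At ZT0 only Acadl is filled and points lie on both sides of 0, and at ZT12 the 7 filled points, Vnn1 farthest at -0.95, all lie to the left of 0.

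Whether the change over time itself differed between treatments was tested by the interaction over all 12 mice. It was below 0 for 30 of the 32 genes (93.8%, against 49.1% of all genes tested), with a median of -0.19, so that the step from ZT0 to ZT12 was more negative or less positive with Libramed. For 25 genes the step was smaller in size with Libramed, a description only, since the share over all genes was not computed. The interaction was called for 5 of the 32, all negative (15.6%, against 6.63% of all genes in either direction, 2.8% negative and 3.82% positive). After adjustment limma passed none of the 32, and none of the 9806, of which 650 had an unadjusted p under 0.05. Leaving out 1 library gave 2 to 11 called genes: 11 without the second vehicle ZT0 replicate, 2 without the third vehicle ZT0 or the first Libramed ZT12 replicate, and 3 without the third vehicle ZT12 or the first Libramed ZT0 replicate.

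Bdh1 had the smallest p of the 5, with an interaction of -0.46 ± 0.13 (log2, limma p = 0.00494, adjusted p = 0.522) and an exact permutation p of 0.01, two-sided, over 400 arrangements of the treatments within each time. The estimates for Bdh1 over time had opposite signs in the 2 treatments. Acadl was at -0.38 ± 0.14 (limma p = 0.0172, exact permutation p = 0.025), from a lower level at ZT0 with vehicle and similar levels at ZT12. These 2 kept their call in all 12 fits that left out a library. Aldh3a2 was at -0.54 ± 0.21 (limma p = 0.0272, exact permutation p = 0.045), and Hadha at -0.29 ± 0.13 (limma p = 0.0449, exact permutation p = 0.05). Vnn1 was at -0.84 ± 0.33 with limma p = 0.0254 and an exact permutation p of 0.115. Rearranging treatments within each time assumes no treatment effect at either time. The permutation p-values given here for interactions are therefore not an exact test of the interaction alone. Aldh3a2 and Vnn1 kept their call in 8 of the 12 fits that left out a library, and Hadha in 4. The subunit partner of Hadha, Hadhb, had the same estimate of -0.29 ± 0.14 with adjusted p = 0.764, and Pdk4 was the largest of the 2 positive values, 0.66 ± 0.38 with adjusted p = 0.819.

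Over both times together, with time as a term and 6 mice against 6, 3 of the 32 genes were called between Libramed and vehicle (9.38%, against 10.1% of all genes tested, 3.82% higher and 6.28% lower), a share no higher than that of all genes. Acaa1b was higher by 0.29 ± 0.11 (limma p = 0.0231, exact permutation p = 0.035), Vnn1 was at -0.53 ± 0.20 (limma p = 0.0198, exact permutation p = 0.045) and Pex11a at -0.34 ± 0.14 (limma p = 0.0348, exact permutation p = 0.075). None of the 32 passed adjustment by limma, against 2 of all genes (0.0204%), 1 in each direction (0.0102%), the smallest adjusted p of the 32 being 0.417. The count was 0 without the first Libramed ZT12 replicate, 5 without the third vehicle ZT0 replicate and 7 without the second Libramed ZT0 replicate.

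Other genes of the pathway, from lists drawn from general knowledge, were counted in the same fits. Of 18 further enzymes and transporters 17 were tested (Oxct1, the ketone-using enzyme, was below the minimum level); 8 rose and 1 fell over time with vehicle, and 7 rose and 1 fell with Libramed. For these lists the shares over all genes are those given above, 14.4% higher and 13% lower with vehicle and 15.7% higher and 13.4% lower with Libramed.

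Of 14 regulators 12 were tested, Ppargc1a and Ppargc1b being below the minimum level. Over time 4 rose with vehicle (33.3%, against 27.4% of all genes called), and 6 rose and 1 fell with Libramed (58.3%, against 29.2%). Ppara itself was at 27.7, 43.1 and 34.0 FPKM at ZT0 and 40.0, 44.7 and 50.2 FPKM at ZT12 under vehicle (0.37 ± 0.17, adjusted p = 0.21), and at 30.5, 36.0 and 26.6 FPKM and 45.7, 37.8 and 42.4 FPKM with Libramed (0.43 ± 0.13, adjusted p = 0.069). Its mice overlapped between times with vehicle and not with Libramed, and its interaction was 0.06 ± 0.22 (adjusted p = 0.983). Lpin1, a coactivator of PPARα and a phosphatidate phosphatase, had the largest rise of the regulators, 2.63 ± 0.17 with vehicle and 2.67 ± 0.29 with Libramed (adjusted p = 0.00215 and 0.00345). Between treatments at ZT12, 2 of the 12 regulators were called, both higher with Libramed (16.7%, against 6.74% of all genes called). They were Esrra at 0.20 ± 0.08 and Ppard at 0.39 ± 0.16 (limma adjusted p = 0.729 each). The calls at ZT12 in the other lists were all lower with Libramed. They were 3 of the 17 enzymes and transporters (17.6%) and 5 of the 19 other PPARα targets (26.3%).

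Of 19 other known PPARα targets, all tested, 9 rose and 1 fell over time with vehicle (52.6%, against 27.4% of all genes called), and 8 rose and 3 fell with Libramed (57.9%, against 29.2%). The ω-hydroxylase Cyp4a14 was at 166, 8.65 and 2.77 FPKM at ZT0 and 36.1, 35.1 and 151 FPKM at ZT12 under vehicle and was not called over time (adjusted p = 0.476). With Libramed it was at 55.8, 121 and 114 FPKM and 18.8, 10.7 and 12.9 FPKM, and it fell by 2.65 ± 0.32 on the log2 scale (adjusted p = 0.0044), as Crot did. At ZT12 its Libramed mice were all below its vehicle mice (-1.99 ± 0.55, adjusted p = 0.729), and its interaction was -4.34 ± 1.55 (limma p = 0.0167, exact permutation p = 0.04). Fabp1, the liver fatty acid binding protein, was higher with Libramed at ZT0 (10660, 12740 and 12650 FPKM under vehicle and 20290, 16660 and 18890 FPKM with Libramed, 0.63 ± 0.14, adjusted p = 0.333).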

How the data were processed

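Liver RNA of 12 HFD-fed mice, 3 in each of 4 groups, was measured by RNA-seq, and samples were grouped by their labels. The authors deposited FPKM values, with genes as rows and the 12 samples as columns. The methods describe stranded mRNA libraries, single-end reads aligned with ELAND to mm10 and to UCSC splice junctions, with non-unique reads discarded, and call the unit RPKM, whereas the submitters' processing notes name TopHat and Cuffnorm with mm10 (GRCm38), and their labels another library kit. Which of these made the table is not given in the sources used here. Read counts and depth were not given, so precision rests on the replicates, and relative depth was only estimated from genes with a mean under 0.1 FPKM.

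The table has 24138 lines. Symbols that occur again (289 further lines) were reduced to their most abundant line, and 6783 of 23849 symbols were at 0 in all samples. The 9806 genes whose mean reached 1 FPKM were tested on log2(FPKM + 1) with limma 3.58.1 in R 4.3.3 (lmFit, eBayes with trend), two-sided, with Benjamini-Hochberg adjustment over all of them. The times were compared under each treatment, and the treatments at each time, in fits of the 6 samples concerned. The interaction and the treatment over both times used all 12. Single genes were also tested by exact permutation (20 arrangements, or 400 with treatments permuted within time, whose smallest two-sided p is 0.005). The permutation within time assumes no treatment effect at either time, so for the interaction it is not an exact test. The test was checked on simulated data. Labels say replicates are biological.

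Genes described with every value had a limma p under 0.05 with groups that did not overlap, or an adjusted p under 0.05; the 3 highest and 3 lowest genes and Acaa1a with Acaa1b were added. Genes outside the 33 were named from 3 lists by their adjusted p or a p under 0.05 in a comparison of treatments, and Ppara in any case; some genes of these lists are counted but not reported singly here. The 33 genes, their classes and these lists were chosen with earlier results of these data known. Sequences came from RefSeq (GRCm38.p6) and GENCODE vM21 (GRCm38). Alternatives were a pseudocount of 0.1, no minimum or a minimum of 5 FPKM, median-ratio scaling, quantile normalization, no trend, a replicate block, a fit of all 12 samples, a Cyber-T version of the test, and leaving out each library.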

Additional observations from a re-analysis of the deposited data

Results flagged for a closer look

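For 5 genes the change from ZT0 to ZT12 differed between Libramed and vehicle in the interaction test at limma p under 0.05, where the log2 value is the change with Libramed minus the change with vehicle. They were Bdh1 at -0.46, Acadl at -0.38, Aldh3a2 at -0.54, Hadha at -0.29 and Vnn1 at -0.84. Adjusted p-values of limma over all 9806 genes ran from 0.522 for Bdh1 to 0.74 for Hadha, so none passed the adjustment, and 6.63% of all genes had an interaction p under 0.05. All 5 rose from ZT0 to ZT12 with vehicle, and with Libramed only Vnn1 did. The third Libramed ZT12 replicate holds muscle transcripts, and without it 5 genes were again called in the interaction. Groups of 3 were too small to look for single outlying mice.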

How the results depend on the processing

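No called difference of a gene changed its sign under any alternative. The counts of genes over time at unadjusted p under 0.05 stayed within 1.5 times in total, but with Libramed the 12 higher and 1 lower became 10 and 7 with quantile normalization, where the median fell from 0.18 to 0.051, and 10 and 3 without the third ZT12 replicate. The median for treatment at ZT0 ran from -0.02 to 0.13 over the fits without 1 library. The count for treatment at ZT0 went from 1 to 2 with no minimum FPKM, with median-ratio scaling and with a fit over all 12 samples, and was 1 in the opposite direction with Cyber-T, and that for treatment over both times from 3 to 5 with median-ratio scaling and with quantile normalization. Leaving out 1 library gave 0 to 3 genes for treatment at ZT0, 1 to 16 for treatment at ZT12, 2 to 11 for the interaction and 0 to 7 for treatment over both times. The calls of 15 of 20 genes over time with vehicle and 10 of 13 with Libramed held without each library in turn, against 1 of 7 for treatment at ZT12 and 2 of 5 for the interaction. Under the other alternatives 16 of 20, 11 of 13, 1 of 7 and 4 of 5 of these calls held throughout. With Libramed Echs1 kept its call over time in 4 of 9 of them and Vnn1 in 5 of 9, and with vehicle Hadha and Acaa2 kept theirs in 6 of 9, not with quantile normalization, the replicate block or Cyber-T. The adjusted count with vehicle fell from 13 to 4 with no minimum FPKM and to 3 with the replicate block, and that with Libramed from 8 to 4 with no minimum FPKM and with quantile normalization. The cause was not tested.

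Same-numbered samples of different groups deviated together with 4 of 18 correlations above 0.1 (-0.279 to 0.341). From groups of 3 these correlations cannot settle whether the numbers pair the mice, and the main fits treated the mice as unpaired. With the replicate block 17 genes were called over time with vehicle, 12 with Libramed, 1 and 7 between treatments at ZT0 and at ZT12, 4 in the interaction and 3 between treatments over both times. Depth was not given, and 3 mice a group limit what small differences can show.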
